A study of Mus musculus with 24 samples.

Results

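The genes of the translation initiation factors were examined for chromatin marks and bound proteins at their promoters. Members were the protein-coding genes of the mouse RefSeq table (GRCm38.p6, the assembly of mm10) whose symbol starts with Eif and a digit from 1 to 6, which gave 56 of 21900 genes. The data were peak lists from CUT&RUN, which cuts out the DNA around a protein or histone mark with a nuclease brought there by an antibody. They came from 2 mouse melanoma lines, kept in DMEM/F12 medium and fetal bovine serum. Line 971 is labelled Kmt2d WT (WT from here on) and line 493 Kmt2d mutant (mutant). The kind of mutation, how the lines were made and whether they share any other allele are not given in the sources used here. In both lines there was a list for the mark H3K4me3, for TFAP2A, for Menin and UTX, and for Smarcc1, Arid1a, BRD9, Arid2 and PBRM1. The list for KMT2D is from WT, and those for TFAP2B, SOX10 T and SOX10 U (a pair of antibodies) are from the mutant line. With 1 library for each target in a line, no difference has a replicate check and no test was run. Line and genotype cannot be told apart. The IgG control of each line was not analysed here.

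Translation initiation loads the ribosome onto an mRNA and sets it at the start codon. eIF2 brings the initiator tRNA, eIF2B recharges eIF2 with GTP, and 4 kinases that phosphorylate eIF2 slow this step under stress. eIF4E binds the mRNA cap, eIF4G bridges it to the eIF4A helicase, and eIF3 joins this assembly to the small ribosomal subunit. Growth signalling through mTOR frees eIF4E from its binding proteins, a control point that is well known in melanoma and other cancers. KMT2D and UTX act together in a complex that methylates histone H3 lysine 4 mainly at enhancers. Menin belongs to related complexes that act at promoters, where H3K4me3 is the mark of active or poised start sites. Smarcc1, Arid1a, Arid2, PBRM1 and BRD9 are subunits of SWI/SNF nucleosome remodelling complexes. TFAP2A, TFAP2B and SOX10 are transcription factors of the melanocyte lineage.

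A gene-end peak is a deposited peak that reaches within 1 kb of either end of a gene, since strand was known here for only 44 of the 56 genes. The lists held from 90 (BRD9, mutant) to 25385 peaks (Arid1a, mutant). The depth at which peaks were called, reconstructed from the deposited statistics, spanned 0.862 M to 1.2 M fragments (M, mega) for WT, and 0.405 M to 2.21 M for mutant lists. The mutant to WT depth ratio was 0.394 for Smarcc1 and from 1.58 (UTX) to 2.37 (Arid2) for the other targets. H3K4me3 reached a gene end of 3 of 8 melanocyte and melanoma markers in the WT line (Erbb3, Pmel and Mitf) and of 4 in the mutant line (Sox10 in addition). It also did so at 3 of 5 fibroblast markers, 1 of 4 keratinocyte, 1 of 4 endothelial and 0 of 4 blood cell markers in each line. Fold enrichment is the authors' value per peak and is compared here only within a list. Distances of summits count from the outermost end of the gene in the RefSeq gene table, and positions of motifs from the start in the promoter table. For some genes (Eif4ebp2, Eif4g3 and Eif5a2 among them) these starts differ, so distances of the 2 kinds are not comparable there. Reads that fit near-identical copies (Eif1a and Eif1ax, Eif3j1 and Eif3j2, Eif4a3 and Eif4a3l1, Eif2s3x and Eif2s3y) cannot be assigned with certainty, and how the authors treated them is not given in the sources used here.

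Most initiation factor genes carried H3K4me3. The mutant list had a gene-end peak at 51 of 56 members (91.1%, against 53.8% of all protein-coding genes) and the WT list at 48 (85.7%, against 49.3%). Cytosolic ribosomal protein genes (101 genes) stood at 87.1% and 88.1%, and proteasome genes (51 genes) at 90.2% and 92.2%, in the mutant and WT lists. Menin was next, at 37 members in the mutant list (66.1%, against 37.9% of all genes) and 29 in the WT list (51.8%, against 31.6%). The transcription factors of the TFAP2 family were called at fewer members, but also above their share of all genes. TFAP2A had 34 members in the mutant list (60.7%, against 34.0%) and 23 in the WT list (41.1%, against 24.6%). TFAP2B had 23 members (41.1%, against 21.9%). Arid1a had 25 members in the mutant list (44.6%, against 20.9%) and 19 in the WT list (33.9%, against 15.7%). The KMT2D and UTX enzymes were at fewer members. UTX had 13 members in each line (23.2%), against 8.86% of all genes in the mutant list and 11.2% in the WT list. KMT2D had 14 members in the WT line (25.0%, against 10.2%).

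Beside genes with H3K4me3 in the same line, the members stood closer to the rest. Of the 48 WT members with H3K4me3, 25.0% carried KMT2D, 22.9% UTX, 33.3% Arid1a, 43.8% TFAP2A and 56.2% Menin. The same shares over all 10787 WT genes with H3K4me3 were 19.7%, 21.2%, 29.0%, 47.9% and 63.3%. Of the 51 mutant members with H3K4me3, 25.5% carried UTX, 49.0% Arid1a, 66.7% TFAP2A, 45.1% TFAP2B and 72.5% Menin, beside 15.8%, 36.4%, 61.1%, 40.2% and 70.1% of all 11782 such genes. Against the other housekeeping groups, the members stood higher for KMT2D (25.0%, with 11.9% of ribosomal protein and 7.84% of proteasome genes). In the WT list Arid1a stood at 33.9% of the members, with 13.9% of ribosomal protein and 19.6% of proteasome genes. In the mutant list the gap was narrower, at 44.6% of the members, 31.7% of ribosomal protein and 37.3% of proteasome genes. TFAP2B stood at 41.1%, with 17.8% and 23.5%. For Menin the order was turned, with 72.3% of ribosomal protein and 82.4% of proteasome genes in the mutant list against 66.1% of the members. The 44 other genes of the pathway, described below, stood above the members. They had Arid1a at 45.5% and KMT2D at 31.8% in WT, and TFAP2B at 22 of 44 genes. The higher shares for these targets were therefore not particular to the initiation factors.

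**Figure D1:**
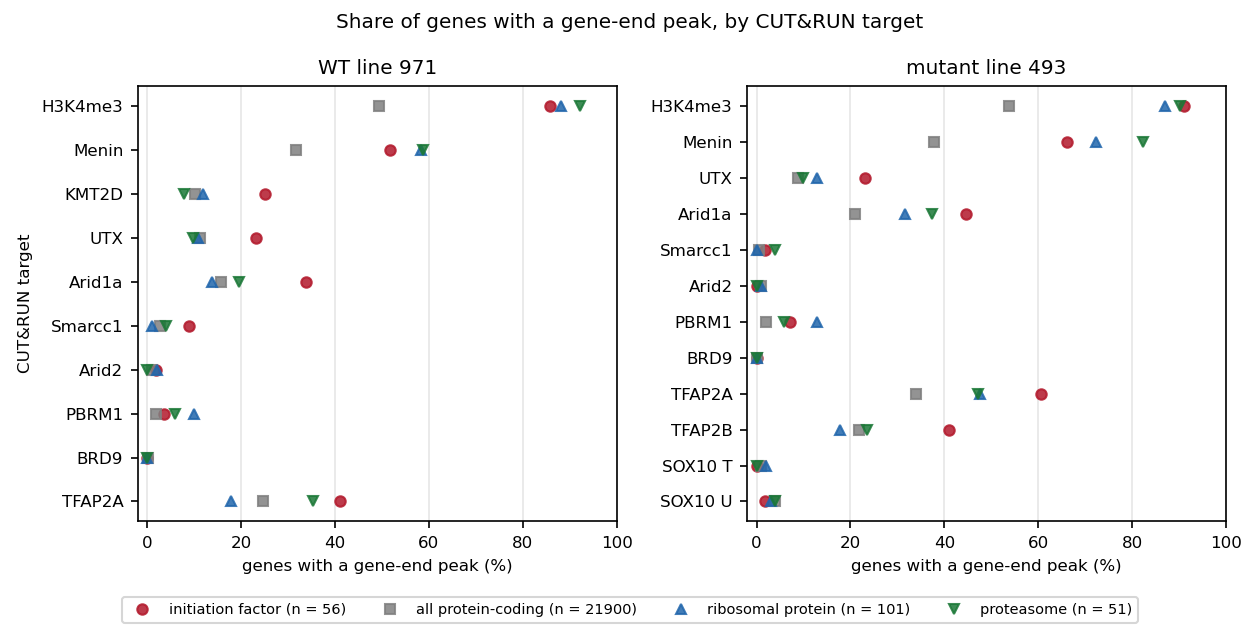
Share of genes with a gene-end peak (x axis, percent) for each CUT&RUN target (y axis) in the WT line (left) and the mutant line (right), for the 56 initiation factor genes, all 21900 protein-coding genes, 101 ribosomal protein genes and 51 proteasome genes. The members lie right of all genes for H3K4me3, Menin, UTX, Arid1a, TFAP2A, KMT2D and TFAP2B, and right of ribosomal protein and proteasome genes for KMT2D, UTX and Arid1a.

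The remaining targets touched few members. Smarcc1, a core SWI/SNF subunit, had 5 members in the WT list (against 2.72% of all genes): Eif2ak3, Eif2ak4, Eif2b2, Eif3f and Eif4b. In the mutant list it had 1, Eif3i (against 0.598%). PBRM1 had Eif1ad and Eif2s3x in both lines and also Eif2ak1 and Eif4a3 in the mutant list, which makes 2 members in WT (against 1.90%) and 4 in the mutant line (against 2.03%). At Eif2s3x, which encodes the gamma subunit of eIF2, the PBRM1 fold enrichment was 10.6 in WT and 15 in the mutant list. Arid2 had Eif4a2 alone in WT (against 0.986%) and no member in the mutant list (0.932%). BRD9 had no member in either line, where 0.210% of all genes in WT and 0.0183% in the mutant list had a peak. SOX10 T had none (0.991%) and SOX10 U had Eif2ak3 alone (against 3.83%).

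Members differed widely in how many of the 22 lists reached them, from 0 to 13. Eif2ak3, Eif2ak4 and Eif4b had a gene-end peak in 13 lists, Eif4g2 in 12 and Eif4a1 in 11. Eif2ak3 (PERK) and Eif2ak4 (GCN2) are eIF2 kinases that sense unfolded proteins in the endoplasmic reticulum and amino acid shortage. Eif4b stimulates the eIF4A helicase and Eif4g2 (DAP5) is an eIF4G relative that does not bind eIF4E. These 5 genes were also the only members with H3K4me3, Menin, Arid1a, UTX and TFAP2A in both lines, a combination found at 3.72% of all genes. At the other extreme, Eif3g had H3K4me3 in both lines and nothing else. Eif2s3y, Eif4a3l1, Eif4ebp3 and Eif4g3 had no gene-end peak in any list.

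**Figure D2:**
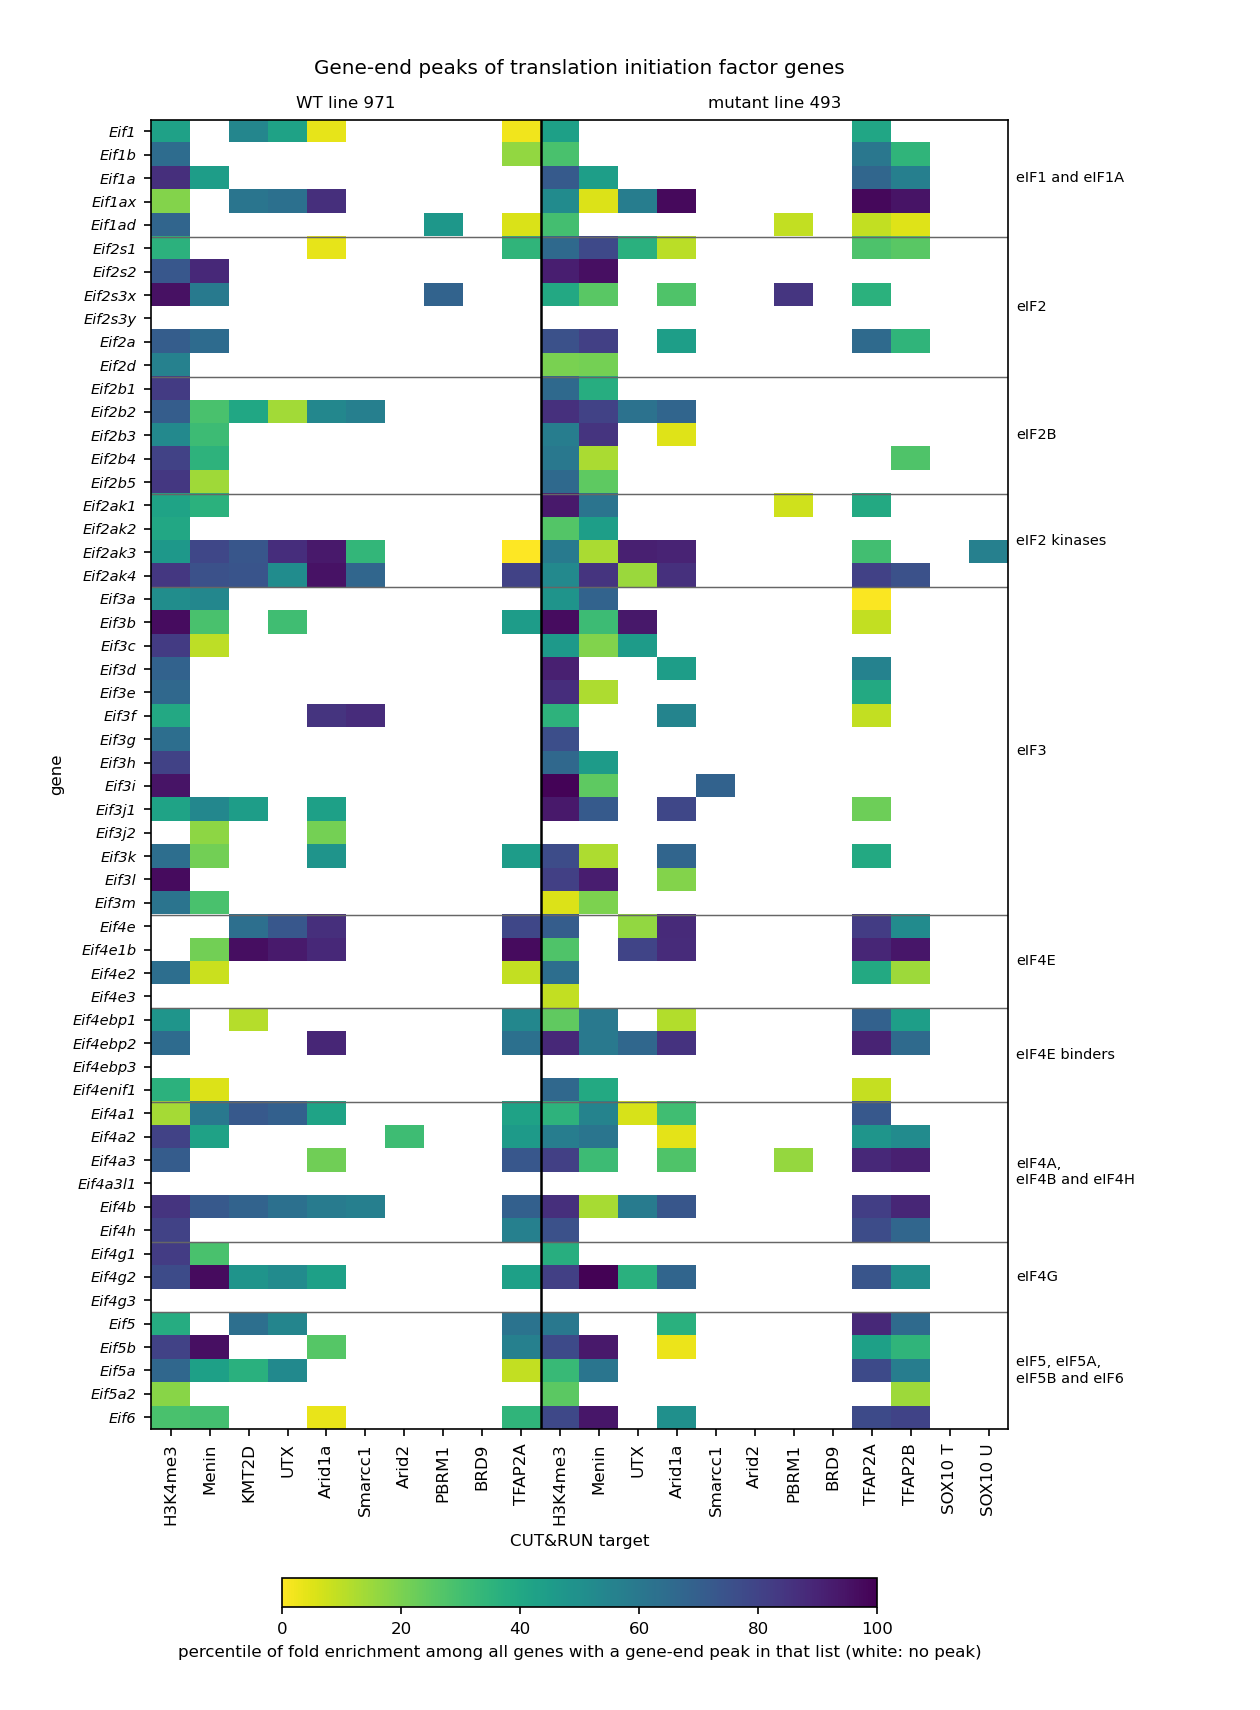
Gene-end peaks of the 56 members (rows, grouped by role) in the 22 peak lists (columns, WT line left of the black line, mutant line right). Colour is the percentile of the authors' fold enrichment among all genes with a gene-end peak in that list, and white cells have no peak. Rows of Eif2ak3, Eif2ak4 and Eif4b are filled in 13 lists each, and eIF3 rows are blank for TFAP2B.

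The factors eIF1 and eIF1A help the scanning ribosome find the start codon. All 5 genes grouped with them here (Eif1, Eif1a, Eif1ad, Eif1ax and Eif1b) carried H3K4me3 in both lines. All 5 carried TFAP2A in the mutant list (against 34.0% of all genes) and 3 in the WT list (against 24.6%). Eif1ax, the X-linked gene of eIF1A (chrX:159372178-159389621), had the highest TFAP2A fold enrichment of all members in the mutant list, 76.4, which was rank 162 of 7445 genes. The peak lay at chrX:159371742-159372088, upstream of the annotated start, with its summit 256 bp before it. The WT list had no TFAP2A peak there and none within 5 kb of the gene. TFAP2B in the mutant line had its summit 264 bp before the start, with a fold enrichment of 32.9 (rank 245 of 4800). The same stretch was not empty in WT: KMT2D had a fold enrichment of 14.2, UTX 15.5 and Arid1a 14.2, with summits 215, 184 and 238 bp before the start. So 3 chromatin proteins, but no TFAP2A, were listed just upstream of Eif1ax in WT. In the mutant line Arid1a stood at 30.6 (rank 119 of 4574) and UTX at 8.70. H3K4me3 at Eif1ax was 8.68 in WT (rank 8798 of 10787) and 23.1 in the mutant list (rank 5677 of 11782).

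Promoter sequences of RefSeq (GRCm38.p6) were matched for 44 members and searched on both strands for the TFAP2 motif, GCCNNNGGC, in the window from 250 bases before to 50 after the start. It was present in 13 of 44 member promoters (29.5%) and in 19.6% of 17492 promoters. Members with a TFAP2B peak held it in 12 of 18 promoters and those without in 1 of 26. Over all genes these shares were 33.8% and 15.5%. For TFAP2A in the mutant list it was 11 of 28 with a peak and 2 of 16 without, beside 30.6% and 13.8% of all genes. Of the 16 matches in member promoters, 15 lay inside a mutant TFAP2A peak, 11 inside a WT TFAP2A peak and 11 inside a TFAP2B peak. The match outside any mutant TFAP2A peak was at Eif5a2. Matches inside peaks were not counted over all genes, so these counts have no share beside them. Of all 3435 promoters with a match, 1853 belonged to genes with a mutant TFAP2A gene-end peak. The 2 genes counted as having a match but no mutant TFAP2A gene-end peak were Eif5a2 and Eif4g3. At Eif4g3 the match does lie inside a mutant TFAP2A peak (9.33), which begins 1280 bp inside the lower end of the gene and so falls outside the 1 kb window. A match describes these letters and is no evidence of a binding site.

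The stretches directly upstream of the start are printed for the member with the strongest mutant TFAP2A peak (Eif1ax, chrX:159371928-159372177 (+ strand)) and for strong TFAP2A peaks found in both lines at Eif4ebp2 (chr10:61452670-61452919 (- strand)), Eif4a3 (chr11:119300044-119300223 (- strand)) and Eif4b (chr15:102073643-102073772 (+ strand)). Eif1b (chr9:120492466-120492605 (+ strand)) and Eif4a2 (chr16:23107388-23107467 (+ strand)) hold 2 matches each close together. Eif4a1 (chr11:69672424-69672533 (- strand)) lies inside a TFAP2A peak of both lines and has no match in the printed bases. All run 5′ to 3′ in the direction of the gene and end at the base before the start that the promoter table gives. Capitals mark matches to the TFAP2 motif. Other strong peaks of both lines are not printed. Among them are Eif4e (20.4 in WT, 27.6 in the mutant list), whose promoter has no match, and Eif5 (13.1 and 35.6), whose match lies after the start.
Eif1ax: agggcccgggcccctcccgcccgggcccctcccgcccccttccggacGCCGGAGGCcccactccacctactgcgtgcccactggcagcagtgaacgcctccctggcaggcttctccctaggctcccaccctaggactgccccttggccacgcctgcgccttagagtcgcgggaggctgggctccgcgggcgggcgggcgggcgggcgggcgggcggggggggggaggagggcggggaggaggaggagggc
Eif4ebp2: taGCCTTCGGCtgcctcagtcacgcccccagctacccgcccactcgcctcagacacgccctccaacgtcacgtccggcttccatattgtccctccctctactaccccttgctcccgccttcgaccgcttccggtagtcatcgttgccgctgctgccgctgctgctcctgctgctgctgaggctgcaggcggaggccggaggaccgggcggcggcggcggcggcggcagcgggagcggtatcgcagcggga
Eif4a3: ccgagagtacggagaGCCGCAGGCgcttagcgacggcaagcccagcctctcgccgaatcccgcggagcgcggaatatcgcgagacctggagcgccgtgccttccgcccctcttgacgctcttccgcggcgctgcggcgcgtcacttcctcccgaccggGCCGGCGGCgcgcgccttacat
Eif4b: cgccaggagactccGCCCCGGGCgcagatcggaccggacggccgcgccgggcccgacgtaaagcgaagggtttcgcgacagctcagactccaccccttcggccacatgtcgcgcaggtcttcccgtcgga
Eif1b: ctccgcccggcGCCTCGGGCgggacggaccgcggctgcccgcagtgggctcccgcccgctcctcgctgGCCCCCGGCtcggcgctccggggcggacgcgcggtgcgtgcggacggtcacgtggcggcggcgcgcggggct
Eif4a2: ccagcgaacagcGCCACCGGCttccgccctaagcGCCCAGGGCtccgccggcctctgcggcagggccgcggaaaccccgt
Eif4a1: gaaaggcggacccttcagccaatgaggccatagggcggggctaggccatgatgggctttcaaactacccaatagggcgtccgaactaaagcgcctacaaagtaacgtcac

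The Eif1ax match spans bases 203 to 195 before the start and lies inside both the mutant TFAP2A and the TFAP2B peak. The pair in Eif4a3 lies inside the TFAP2A peak of each line (fold enrichment 17.1 in WT, 35.6 in the mutant list). The Eif4ebp2 match is at bases 248 to 240 before the start of the promoter table, inside the TFAP2A peak of each line and the TFAP2B peak. Other motifs were also common in these promoters. GGGCGG (SP type) was present in 72.7% of the member promoters (46.3% of all), CCGGAAG (ETS type) in 31.8% (11.9%) and the E-box CACGTG, which MYC and MITF can bind, in 18.2% (7.91%). Among promoters with H3K4me3 in the mutant line these shares were 75.6%, 34.1% and 19.5% for members, and 67.7%, 19.0% and 10.3% for all genes. TGACGTCA (CRE) was in none of the 44 (2.33% of all) and the ATF4-type TGATGNAA in Eif2s3x alone (3.68% of all). Member promoters had a median GC content of 61.0% and a median ratio of observed to expected CpG of 0.857, beside 56.3% and 0.577 for all promoters.

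At the eIF2 and eIF2B genes Menin was the most often called protein. All 5 eIF2B subunit genes carried H3K4me3 in both lines. Menin was at all 5 in the mutant list (against 37.9% of all genes) and at 4 in WT (against 31.6%). TFAP2A was at none of them in either line (against 34.0% in the mutant list and 24.6% in WT). Eif2b2, the gene of the beta subunit, also had KMT2D (9.30) and Arid1a (7.70) at its start in WT, and its WT Smarcc1 and UTX peaks lay nearer the far end of the gene. Of the 6 genes grouped here as eIF2, which include Eif2a and Eif2d beside the subunit genes, 5 carried H3K4me3 in both lines. Eif2s2, which encodes the beta subunit, had the highest Menin values of the group, 13.9 in WT (rank 807 of 6911) and 20.3 in the mutant list (rank 325 of 8304). Eif2s3y, the Y-linked copy of Eif2s3x, had no peak, although every H3K4me3 list held peaks on the Y chromosome (3 in WT and 14 in the mutant list). KMT2D was at no eIF2 gene.

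All 4 eIF2 kinase genes carried H3K4me3 in both lines, but the other targets divided them. Eif2ak3 and Eif2ak4 carried KMT2D, UTX, Arid1a and Smarcc1 in WT. Eif2ak1 (HRI, which senses heme and mitochondrial stress) and Eif2ak2 (PKR, which senses double-stranded RNA) carried none of these 4 in WT. In the mutant line, which has no KMT2D list, they carried no UTX, Arid1a or Smarcc1. At Eif2ak3 UTX had a fold enrichment of 36.5 in WT and 23.6 in the mutant list, and Arid1a 18.4 and 19.4, with the summit at the same base, 127 bp before the start, in all 4 lists. KMT2D stood at 19.7 with its summit 190 bp before the start. Eif2ak3 was also the single member with SOX10 U, at 5.95, with the summit 17 bp after the start. At Eif2ak4 the WT Arid1a value of 19.6 was rank 174 of 3440. TFAP2A stood at 21.0 in WT and 25.5 in the mutant list, and TFAP2B at 13.3.

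The eIF3 complex, with 14 genes here, carried H3K4me3 at nearly every gene and no TFAP2B. H3K4me3 was at 13 of 14 in both lines, all but Eif3j2. The highest H3K4me3 value of all members in the mutant list was at Eif3i, 48.4 (rank 117 of 11782), followed by Eif3b at 43.4. The Eif3i peaks of both lists also reach within 1 kb of an end of Tmem234. In WT the highest were Eif3l at 27.0 (rank 315 of 10787), Eif3b at 26.4, Eif2s3x at 25.7 and Eif3i at 25.3. TFAP2B was at 0 of 14 eIF3 genes, against 21.9% of all genes. TFAP2A was at 2 in WT (Eif3b and Eif3k, against 24.6% of all genes) and at 7 in the mutant list (against 34.0%), where its values ran from 3.39 (Eif3a) to 12.9 (Eif3d). KMT2D was at Eif3j1 alone, with 10.1. UTX was at Eif3b in both lines, with 7.71 in WT (rank 1694 of 2442) and 27.1 in the mutant list (rank 125 of 1940), the highest UTX value of any member in that list. Its summits lay 340 and 352 bp before the start. Eif3b was also the only member with UTX and without KMT2D in WT.

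The cap-binding group had another makeup. Of the 4 eIF4E genes, 3 had TFAP2A in both lines and TFAP2B in the mutant line (Eif4e, Eif4e1b and Eif4e2), against 18.4% of all genes. None of the 4 had a Menin gene-end peak in the mutant list, against 37.9% of all genes. Menin peaks of that list lay beyond the 1 kb window at Eif4e (7.11, beginning 1890 bp inside the gene, where WT had 4.77 at 2862 bp) and at Eif4e1b (5.97). Eif4e encodes the cap-binding protein itself (chr3:138526191-138559696). In WT its start carried KMT2D (15.2), UTX (20.8), Arid1a (14.1) and TFAP2A (20.4). Arid1a, TFAP2A and UTX were found there in the mutant line too, beside TFAP2B. Their values were 18.3 for Arid1a, 27.6 for TFAP2A, 8.22 for TFAP2B and 4.78 for UTX (rank 1621 of 1940). H3K4me3 at Eif4e was in the mutant list alone under the 1 kb rule, since the WT peak lies just beyond it. The mutant peak begins 976 bp inside the gene with a fold enrichment of 28.7, and the WT peak 1641 bp inside with 9.77.

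Eif4e1b, an eIF4E relative known from the oocyte, had the highest KMT2D value of all members, 57.6 (rank 86 of 2224). UTX there stood at 50.2 (rank 180 of 2442) and TFAP2A at 49.6 (rank 167 of 5382) in WT. In the mutant line TFAP2A stood at 37.4, TFAP2B at 29.4 and UTX at 15. These peaks lie beyond the upper end of Eif4e1b, around chr13:54789047-54789504 for KMT2D, and all 10 of its peaks also reach within 1 kb of an end of the neighbouring Tspan17, so they cannot be given to either gene. In all, 15 members shared a peak with another gene's end, for 91 of the 343 member peaks. Every peak was shared at Eif1a (with Tmed7), Eif1ad (Banf1), Eif2a (Serp1), Eif2ak2 (Gm26637), Eif2b1 (Gtf2h3) and Eif2b4 (Snx17). The same held for Eif2s1 (Atp6v1d), Eif3i (Tmem234), Eif4enif1 (Gm51877 or Sfi1) and Eif5b (Txndc9). At Eif3k (Map4k1) 7 of 8 peaks were shared and at Eif4a1 (Senp3) 10 of 11. Shared peaks cannot be given to a single gene. Eif4e3 had a gene-end H3K4me3 peak in the mutant list alone, at 7.72 (rank 10703 of 11782), also within 1 kb of an end of Gpr27. Inside the gene, H3K4me3 was present in both lists, at 14.9 in WT and 16.8 in the mutant list.

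The genes of the eIF4E-binding proteins, which hold eIF4E away from eIF4G until mTOR phosphorylates them, were split as well. Eif4ebp1 and Eif4ebp2 carried TFAP2A in both lines and TFAP2B (as did 18.4% of all genes), and Eif4ebp3 had no gene-end peak. Outside the 1 kb window, H3K4me3 (18.5 in WT, 23.2 in the mutant list) and Menin (10.8 and 7.34) lay beyond its upper end. Arid1a (19.0 and 29.1) lay before its lower end, beginning 7554 bp (WT) and 7510 bp (mutant) from it. Eif4ebp2 had the highest TFAP2A value among members with a peak in both lines, 39.0 in the mutant list (rank 749 of 7445), with 13.2 in WT (rank 1983 of 5382). Arid1a at Eif4ebp2 stood at 15.6 in WT and 16.4 in the mutant list, and UTX at 10.4 in the mutant list alone. Eif4ebp1 had KMT2D at 5.10 without UTX. Eif4enif1, whose product carries eIF4E into the nucleus, had Menin in both lines (4.45 in WT and 7.38 in the mutant list).

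Of the 6 genes of the eIF4A helicases and their partners, 5 carried TFAP2A in both lines, against 23.4% of all genes. Eif4a1, Eif4a2, Eif4a3, Eif4b and Eif4h had values from 9.02 (Eif4a1) to 17.1 (Eif4a3) in WT and from 10.7 (Eif4a2) to 35.6 (Eif4a3) in the mutant list. All but Eif4a1 also carried TFAP2B, and 18.4% of all genes had TFAP2A in both lines together with TFAP2B. Eif4a1 and Eif4b carried KMT2D and UTX in WT, at 19.1 and 18.4 for Eif4a1 and at 17.0 and 15.3 for Eif4b. In the mutant list UTX stood at 4.15 at Eif4a1, with the summit 952 bp after the start instead of 14 bp before it, and at 8.76 at Eif4b. Eif4g1, the main scaffold, carried H3K4me3 in both lines and Menin in WT alone (6.09). Eif4g2 had the highest Menin value of all members in both lists, 19.3 in WT (rank 202 of 6911) and 30.6 in the mutant list (rank 36 of 8304). Eif4g3 was missed by the 1 kb rule. Its H3K4me3 peaks begin 1695 bp (WT, 22.1) and 1052 bp (mutant, 31.1) inside the lower end of the annotated gene.

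Of the late-acting factors, Eif5, Eif5a, Eif5b and Eif6 carried TFAP2A in both lines (against 23.4% of all genes). These 4 and Eif5a2 carried TFAP2B (against 21.9%). eIF5 triggers GTP hydrolysis by eIF2, eIF5B joins the ribosomal subunits, eIF6 keeps the large subunit from joining early, and eIF5A, a target of hypusine modification, acts largely in elongation. TFAP2A at Eif5 stood at 13.1 in WT and 35.6 in the mutant list, and at Eif5a at 4.80 and 23.0. Eif5b had a WT Menin value of 17.6 (rank 290 of 6911), with 17.4 in the mutant list. Eif6 had Menin at 6.15 in WT and 18 in the mutant list (rank 512 of 8304). Its H3K4me3 and Menin peaks lay at the upper end of the gene and its TFAP2A, TFAP2B and Arid1a peaks at the lower end, where they also reach within 1 kb of an end of Mmp24 and BC029722. They cannot be given to any of these genes.

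Peaks were placed differently around the start depending on the target. H3K4me3 summits lay downstream of the start at 36 of 40 members in WT and at 36 of 41 in the mutant list, with medians of 506 and 424 bp after it (475 and 373 bp over all genes). KMT2D summits lay upstream at 8 of 11 members, Arid1a summits at 12 of 14 in WT and 16 of 19 in the mutant list, and TFAP2A summits at 13 of 19 and 16 of 28. Over all genes, KMT2D summits were upstream at 1110 of 1728, and Arid1a summits at 1506 of 2564 in WT and 1994 of 3478 in the mutant list. Downstream summits made up 27.3% of the members and 35.5% of all genes for KMT2D, and for Arid1a 14.3% and 41.1% in WT and 15.8% and 42.3% in the mutant list. Over all genes 57.9% (WT) and 55.4% (mutant) of TFAP2A summits were downstream, against 31.6% and 42.9% of the members. For Menin, 54.9% and 59.7% of all genes had the summit downstream, against 34.8% and 34.5% of the members. H3K4me3 peaks at the members were wide, with medians of 2052 bp in WT and 2186 bp in the mutant list, beside 1701 and 1656 bp over all genes. Their median fold enrichment was 17.8 and 27.4, beside 14.9 and 22.7. For Menin (6.72 and 7.86, beside 8.04 and 8.34) and for Arid1a (7.13 and 8.04, beside 7.48 and 8.32) the members' medians were slightly under those of all genes.

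KMT2D and UTX were mostly called at the same members. Of the 14 members with KMT2D in WT, 12 also had UTX, 11 Arid1a, 11 TFAP2A and 12 H3K4me3, and over all genes with KMT2D these shares were 84.7%, 78.6%, 79.5% and 95.8%. Eif3j1 and Eif4ebp1 had KMT2D without UTX. KMT2D, UTX and Arid1a were all called at the gene ends of 10 members in WT, against 7.11% of all genes. These members were Eif1, Eif1ax, Eif2ak3, Eif2ak4, Eif2b2, Eif4a1, Eif4b, Eif4e, Eif4e1b and Eif4g2. At Eif2b2 the WT UTX peak lay nearer the far end of the gene, and the KMT2D and Arid1a peaks at its start. UTX was compared between the lines gene by gene because it shares a complex with KMT2D. Of the 12 members with both, 9 had a UTX gene-end peak in the mutant line too, though not always in the same place. Of all 1883 genes with both in WT, 592 had no UTX gene-end peak in the mutant list. At Eif2b2 the mutant UTX peak was at the start, and at Eif4a1 its summit was 952 bp after the start. Eif1 (9.96 in WT), Eif5 (12.5) and Eif5a (12.0) had none, with no UTX peak within 5 kb. These 3 were also all the members with UTX in WT only (3 of 56, against 4.43% of all genes). Another 3 had UTX in the mutant list only, Eif2s1 (6.09), Eif3c (6.96) and Eif4ebp2 (10.4), against 2.14% of all genes. Both counts are small, and with the depth of the lists made equal the WT-only count was 5, with Eif2ak4 and Eif4a1 in addition, and the mutant-only count 3.

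TFAP2A differed between the lists in 1 direction only. At 11 members it had a peak in the mutant list only (against 10.6% of all genes) and at none in the WT list only (against 1.21%). The highest were Eif1ax (76.4), Eif1a (17.0), Eif2a (16.1), Eif3d (12.9), and Eif2ak1 and Eif3e at 8.48 each. The other 5 were Eif2s3x (8.44), Eif3j1 (5.94), Eif3f (4.55), Eif4enif1 (4.37) and Eif3a (3.39). The Eif1a, Eif2a and Eif4enif1 peaks also reach within 1 kb of an end of another gene. Eif2a encodes an alternative initiator tRNA carrier, and Eif3d a subunit with cap-binding activity. Of the 48 members with H3K4me3 in both lines 22.9% were mutant only for TFAP2A, and of all 10668 such genes 18.9%. Ribosomal protein genes were mutant only at 32 of 101. With the deeper list thinned to equal depth, 8 members remained mutant only and Eif3b was WT only. Counts at equal depth or equal list length, here and for the other targets, are for members only. They have no share over all genes beside them. Eif1a, Eif1ax, Eif2a, Eif2ak1, Eif2s3x, Eif3d and Eif3e were mutant only both under thinning and with lists of equal length. Of the 11, Eif1a, Eif1ax and Eif2a carried TFAP2B too, while 18 of the 23 members with TFAP2A in both lines did. Over all genes, TFAP2B was at 615 of 2328 with TFAP2A in the mutant list only and at 4038 of 5117 with it in both lines.

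**Figure D3:**
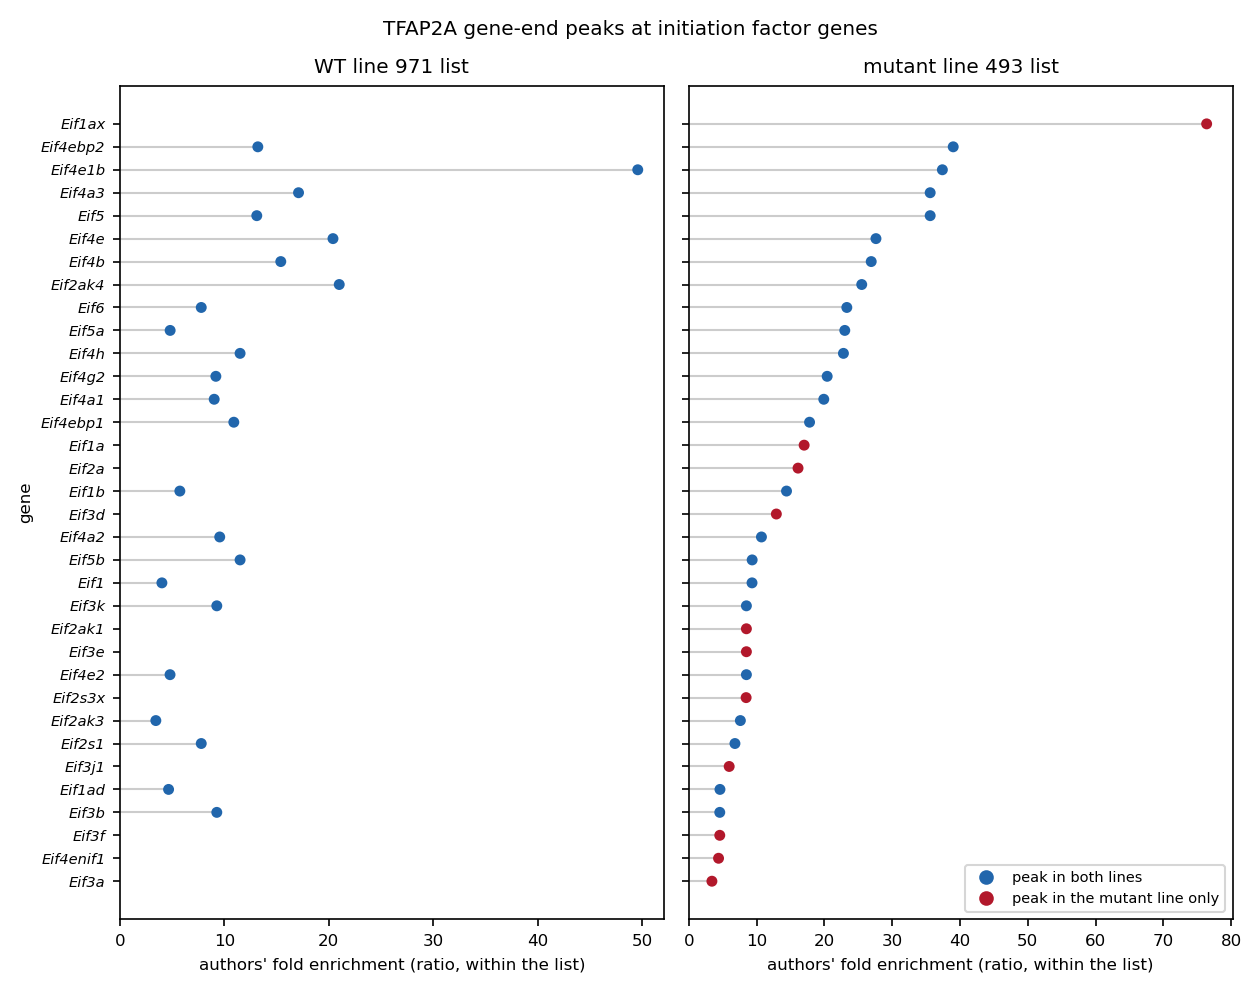
TFAP2A fold enrichment (x axis, the authors' ratio, comparable only within a list) for the 34 members with a TFAP2A gene-end peak (y axis), in the WT list (left) and the mutant list (right). Blue points are members with a peak in both lines and red points members with a peak in the mutant list only. Eif1ax, at 76.4, has no WT peak, and 7 of the other 10 red points are under 9.

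Menin and Arid1a were also called at more members in the mutant list. Menin was in the mutant list only at 12 members (against 8.28% of all genes), led by Eif3l (16.8), Eif2s1 (12.3), Eif4ebp1 and Eif4ebp2 (both 9.40) and Eif3h (7.86). It was in the WT list only at 4 (against 1.92%), Eif4g1 (6.09), Eif4e1b (5.57), Eif3j2 (5.49) and Eif4e2 (4.53). At Eif4e1b a mutant Menin peak (5.97) overlaps the WT peak just beyond the 1 kb window. With no peak within 5 kb in the other line, 3 WT-only members were left (Eif3j2, Eif4e2 and Eif4g1). Among genes with H3K4me3 in both lines, 25.0% of the members and 15.9% of all genes were mutant only for Menin. Under thinning the Menin counts were 10 and 7. Arid1a was in the mutant list only at 8 members (against 7.94%), led by Eif3d (7.49), Eif2a (7.21), Eif5 (6.50), Eif2s3x (5.80) and Eif3l (5.09), and in the WT list only at Eif3j2 (5.28) and Eif1 (3.94), against 2.76%. Of these 8, 6 also had TFAP2A in the mutant list, as did 1336 of all 1739 genes with Arid1a in the mutant list only. Under thinning 5 members were mutant only and 3 WT only for Arid1a. With lists of equal length, Arid1a was called in 1 line only at 4 members each way.

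H3K4me3 was in the mutant list only at 3 members (against 5.09% of all genes), Eif4e, Eif4e1b and Eif4e3, and in the WT list only at none (against 0.543%). All 3 have a WT H3K4me3 peak within 5 kb of the gene or inside it. At Eif4e1b the WT peak overlaps the mutant peak beyond the upper end, which is shared with Tspan17. At Eif4e3 the WT peak begins 43759 bp inside the lower end, while the mutant gene-end peak lies at the upper end. Under thinning the counts were the same, 3 and 0. For Smarcc1 more members were called in WT, where its list was also the deeper of the pair. The 5 WT-only members (against 2.46%) were Eif3f (10.7), Eif2ak4 (7.16), Eif2b2 (6.27), Eif4b (6.27) and Eif2ak3 (5.10), and Eif3i (3.86) was mutant only (against 0.338%). At Eif2b2, Eif3f and Eif4b the Smarcc1 peak lay nearer the far end of the gene than its start. When the WT list was cut to the length of the mutant list, none of the 5 was left. With the WT list thinned to equal depth, 4 of the 5 remained WT only (Eif2ak4, Eif2b2, Eif3f and Eif4b).

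The other genes of the pathway were read the same way in a list of 44 genes. H3K4me3 was at 41 of 44 in the mutant list and 39 in WT, KMT2D at 14, UTX at 14 and 15, Arid1a at 22 and 20, Menin at 34 and 26, and TFAP2A at 29 and 21 in the mutant and WT lists. TFAP2B was at 22. The shares of all genes were 53.8% and 49.3% for H3K4me3, 10.2% for KMT2D, 8.86% and 11.2% for UTX, 20.9% and 15.7% for Arid1a, 37.9% and 31.6% for Menin, 34.0% and 24.6% for TFAP2A, and 21.9% for TFAP2B. Of the 12 genes of mTOR and MNK signalling, which act on eIF4E and its binding proteins, all had H3K4me3 in both lines, and Mtor, Rheb and Mknk2 had KMT2D and UTX in WT. TFAP2A was in the mutant list only at 9 of the 44 (Rptor, Rps6kb1, Mlst8, Tsc1, Mknk2, Ddit3, Trib3, Ppp1r15b and Eef1d) and in the WT list only at Ppp1r15a, the phosphatase subunit that reverses eIF2 phosphorylation. Over all genes 10.6% were mutant only and 1.21% WT only for TFAP2A. No count at equal depth was made for these 44 genes. UTX was in the WT list only at Atf4, Denr and Pabpc1 (against 4.43% of all genes) and in the mutant list only at Eef1d and Mlst8 (against 2.14%). Atf4 is the transcription factor translated when eIF2 is phosphorylated, Denr helps recycle and reinitiate ribosomes, and Pabpc1 binds the poly(A) tail and eIF4G.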

How the data were processed

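The deposited files are MACS2 narrowPeak lists on mm10, made with Bowtie2, FastQC, MACS2 and MultiQC, per the submitters' processing notes. Their versions and settings and the caller's control are not given in the sources used here. A peak carries the authors' fold enrichment (a ratio), the authors' −log10 p and −log10 q, and the deposited score, which was not used for any result. The weakest peak of a list had a −log10 q between 1.3 and 1.59. Depth is known only through the caller's statistics and limits which weak peaks could be called.

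A gene counted as called if any base of a deposited peak lay within 1 kb of either end, over all 21900 genes. The strongest such peak gave the values. Strand and promoters came from the RefSeq promoter table, 1 promoter per gene (the one nearest the gene's end), for 44 members and 17492 genes. Depth was solved from fold enrichment and −log10 p at summits with the caller's default mouse genome size, and thinning dropped peaks that fell under the other list's lowest −log10 p at equal depth. Gene-end assignment and depth recovery were checked on simulated data. All 2000 simulated peaks that began within 1 kb inside a gene's lower end were found. Upper ends and peaks that begin outside a gene were not simulated.

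Named members were those lacking H3K4me3 in a line, the 5 strongest per list of at least 1000 peaks, all members of lists with 5 or fewer, the 5 strongest in 1 line only, and those in the most and fewest lists. Others were named after their values were seen. The members, gene lists and motifs were chosen with earlier results of these data known. Alternatives were a 2.5 kb window, a −log10 q of at least 5, removal of regions called in 15 or more libraries, summits only, gene starts only, equal depth, equal list length and no peak within 5 kb in the other line. The scripts ran under Python 3.11.15 with SciPy 1.17.1, pandas 2.3.3, NumPy 2.4.6 and Matplotlib 3.10.9.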

Additional observations from a re-analysis of the deposited data

How the results depend on the processing

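Of 182 counts of members recomputed under 8 alternatives, 161 stayed within 1.5 times. These include all 34 without regions called in 15 or more libraries, which could not change. No member peak lay in such a region, and the most libraries at any member peak was 13. With summits only, all 22 stayed so. A −log10 q of at least 5 left 0 Smarcc1 (mutant), 2 PBRM1 (mutant) and 0 Arid2 (WT) members, and gave 4 mutant-only for Arid1a, 0 mutant-only for Smarcc1, 1 WT-only for TFAP2A and 6 WT-only for UTX. A 2.5 kb window gave 2 for SOX10 U, 2 for Arid2 in WT and 1 mutant-only for H3K4me3, and with no peak within 5 kb in the other line that H3K4me3 count was 0. Gene starts only gave 2 for Smarcc1 in WT. Equal depth gave 5 mutant-only for Arid1a, 7 WT-only for Menin, 1 WT-only for TFAP2A and 5 WT-only for UTX. Equal list length gave 4 WT-only and 4 mutant-only for Arid1a, 0 WT-only for Smarcc1, and 2 WT-only and 7 mutant-only for TFAP2A. Beyond what these constructions remove (weaker peaks, smaller or larger windows), the cause was not tested. No paired analysis was possible because each line and target has 1 library. Peaks under the depth of a list cannot be told from absent ones.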

Other observations

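Around Eif4e the strongest KMT2D site was not at the promoter. In WT, KMT2D had a fold enrichment of 22 at chr3:138515873-138516347, which begins 10318 bp before the gene, and 15.2 at the gene start. UTX stood at 33.0 in the same place and Arid1a at 17.4, with Smarcc1 at 6.27 and TFAP2A at 8.14. In the mutant line the place held Arid1a (11.5), UTX (9.58), Menin (5.97) and SOX10 U (5.44), and no TFAP2A peak was listed. A further site, which begins about 5 kb before the gene, carried Arid1a in both lines (19.0 in WT and 28.6 in the mutant list), with KMT2D (6.50), UTX (13.0) and Smarcc1 (8.95) in WT and no UTX peak in the mutant list. H3K4me3 had no peak at either place in either line. These sites were chosen after their values were seen, and the lines differ in depth.

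Inside Eif4g3, Arid1a, UTX and, in WT, KMT2D and Smarcc1 shared a site that begins about 50 kb above the lower end of the gene. Values there were 11.1 for Arid1a, 12.3 for UTX, 8.60 for KMT2D and 8.06 for Smarcc1 in WT, and 12.2 for Arid1a and 13.5 for UTX in the mutant line.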
